A study of Mus musculus with 25 samples.

Results

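The genes described here are the semaphorins of the vertebrate classes, their plexin and neuropilin receptors, the ephrins and the Eph receptors, measured in mouse oligodendrocyte precursor cells (OPC) after a white matter stroke. Members were taken by symbol alone. They are every gene whose name marks it as a semaphorin of classes 3 to 7, a plexin, Nrp1 or Nrp2, an ephrin or an Eph receptor. The rule itself used no values, but the families were chosen with earlier results of these data known. The rule found 53 of the 23351 genes of the table. They are 20 semaphorins, 9 plexins, 2 neuropilins, 8 ephrins and 14 Eph receptors.

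OPC are the dividing glial cells that give rise to myelin-forming oligodendrocytes, and a white matter stroke starves a stretch of myelinated fibres of blood. The 25 libraries, cut from mouse brain by laser capture microdissection, fall into 3 groups: Control (n = 10), and white matter stroke at Day 5 (n = 8) and at Day 15 (n = 7). Strain, genotype, sex, how the stroke was made, whether controls had surgery, and how areas were picked for capture are not given here in any source used. The series compares OPC with and without stroke, and the comparisons below ask which guidance genes differed 5 and 15 days after it and between the 2 days.

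Semaphorins are secreted or membrane-bound guidance proteins. Most signal through plexins, whose inner part switches off small GTPases and loosens the hold of the cell on its surroundings, and the class 3 semaphorins mostly need a neuropilin to bind plexins of the A group. Ephrins sit on one cell and Eph receptor tyrosine kinases on its neighbour, and both can signal inward. In white matter these families are known for steering axons and migrating OPC, and several semaphorins and plexins also act in immune cells.

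Values are RPKM, in which read numbers are divided by gene length and by library size, so levels of different genes can be compared. How many reads they rest on is unknown. Agreement between libraries was low: over the 4319 genes that passed a filter on low values, log2(RPKM + 1) correlated between libraries of the same group with a Pearson r of 0.216 to 0.425 (94 pairs, median 0.288). Genes at an RPKM of at least 1 ran from 1306 to 4320 in Control, from 2353 to 6592 at Day 5 and from 1749 to 5266 at Day 15. The precursor of ribosomal RNA, Rn45s, made up 73.4% of all RPKM of Control replicate 5 and 68% of those of Day 5 replicate 10.

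The labelled cell type was checked against 12 OPC markers, and none was at 0 in every library of a group. The same was so of the markers of every other cell type looked at, among them neurons and T and B cells. That presence alone therefore cannot set OPC apart. The summed RPKM of the OPC markers had a median of 22.2 in Control, 32.0 at Day 5 and 37.7 at Day 15. Of these 12 markers, 4, 8 and 6 had a group median of at least 1 RPKM. Pdgfra, a defining receptor of OPC, had medians of 0.607, 4.71 and 0.643 RPKM in Control, Day 5 and Day 15, Ptprz1 had 3.38, 13.6 and 10.9, Sox10 had 2.01, 1.91 and 2.35, and Olig2 had 0.631, 0.404 and 0.151. Markers of other cells were present throughout: 12 mature oligodendrocyte markers summed to medians of 811, 324 and 174 RPKM. For 10 astrocyte markers the medians of the sum were 61.0, 50.9 and 168 RPKM. The 12 macrophage and leukocyte markers summed to 15.6 RPKM in Control (1.14 to 131.5), 827 at Day 5 (158 to 2618) and 129 at Day 15 (57.3 to 589), and the 12 microglia markers to 25.5, 156 and 241. In deposited RPKM, every Day 5 library thus held more macrophage and leukocyte signal than every Control library. As a share of the RPKM sum without Rn45s this was not so. Day 5 replicate 6 held 310.1 of 35398 RPKM, a smaller share than the 68.9 of 7210 RPKM in Control replicate 3. In bulk samples such as these, fewer cells of a type and less RNA per cell cannot be told apart.

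Most guidance genes were at low levels in these libraries. Only 17 of the 53 members passed the filter (7 or more libraries at an RPKM of at least 1): 5 semaphorins, 7 plexins, both neuropilins, 1 ephrin and 2 Eph receptors. The other 36 were below it, 35 members had a mean RPKM under 1, and 12 never reached 1 RPKM in any library. A library held 4 to 17 members at an RPKM of at least 1 in Control (median 7.5), 4 to 22 at Day 5 (median 13) and 5 to 19 at Day 15 (median 8). Libraries with many detected genes overall tended to hold more detected members, as the plot of detected genes shows: Day 5 replicate 3 had 6592 genes and 22 members at that level, and Control replicate 10 had 1699 and 4. There were exceptions, such as Control replicate 3 with 1306 and 6 beside Control replicate 8 with 2617 and 5.

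**Figure D1:**
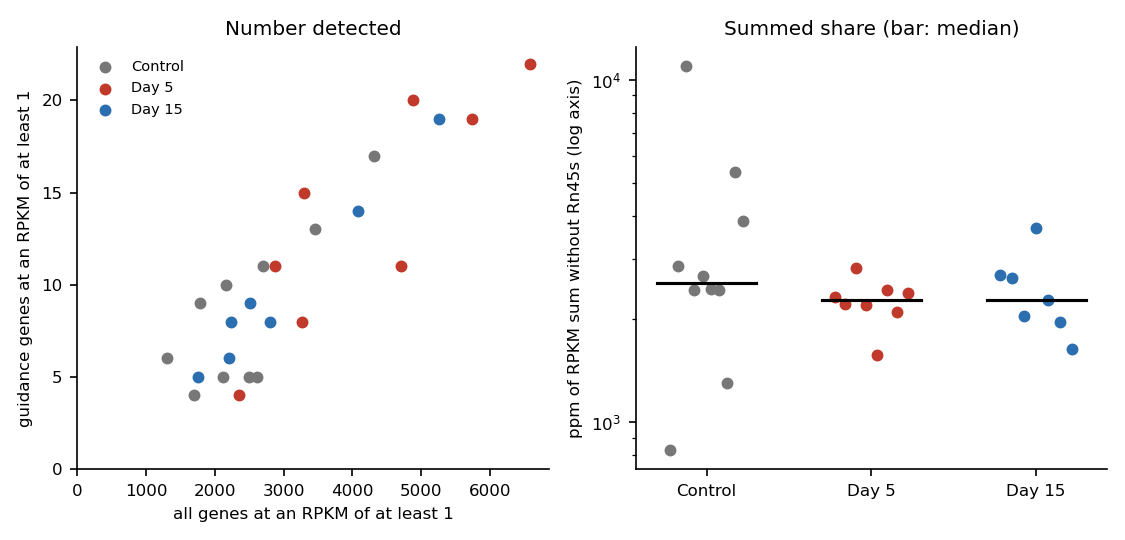
Left: number of guidance genes at an RPKM of at least 1 (y) against the number of all genes at that level (x), 1 point a library, coloured by group. Right: summed RPKM of the 53 guidance genes in ppm of the library's RPKM sum without Rn45s (log axis; ppm, RPKM per 1000000 of that sum), 1 point a library, with the group median as a bar. Libraries with more detected genes tend to hold more detected guidance genes in all 3 groups, with exceptions in each. The summed share has medians of 2557, 2269 and 2271 ppm in Control, Day 5 and Day 15, with ranges that overlap.

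Summed over the 53 members, the RPKM had a median of 51.9 in Control (16.5 to 92.6), 86.5 at Day 5 (23.7 to 156.8) and 104.7 at Day 15 (22.96 to 130.3). As a share of the library's RPKM sum without Rn45s the same total was 831 to 10955 ppm in Control, 1576 to 2818 at Day 5 and 1640 to 3686 at Day 15. The highest share came from 1 gene in 1 library: Epha5 in Control replicate 3 made up 72.4% of that library's guidance total. The groups overlap in the sum and in the share.

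**Figure D2:**
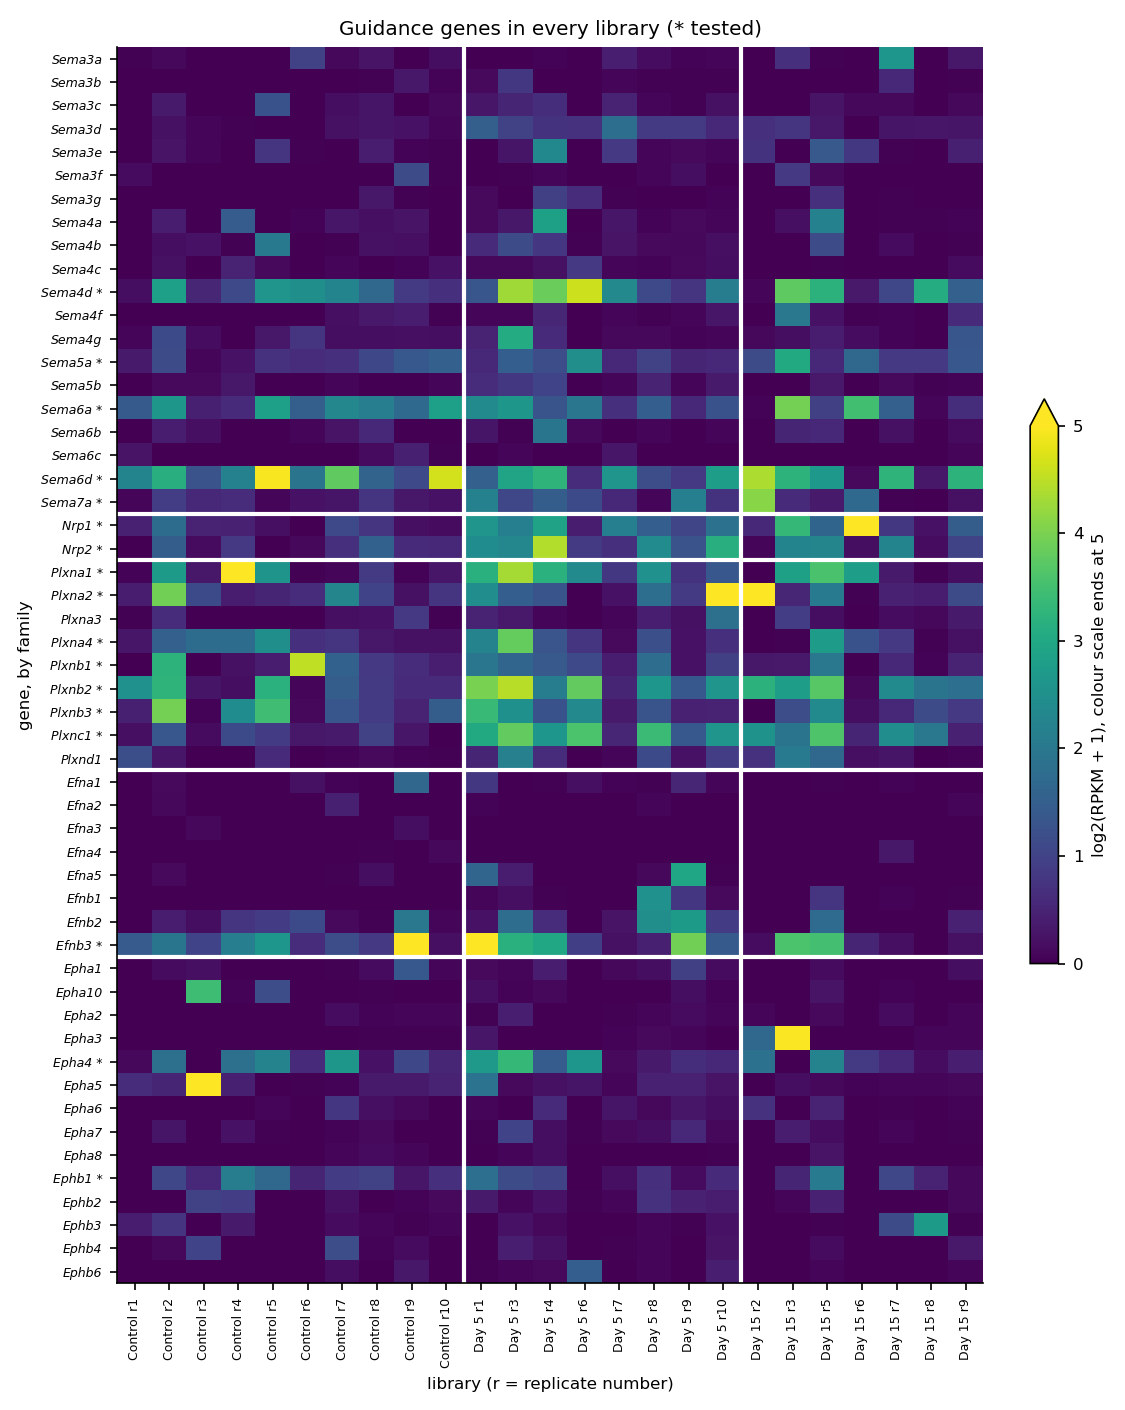
Level of each of the 53 guidance genes (rows, by family; an asterisk marks the 17 that were tested) in each of the 25 libraries (columns, by group and replicate number), as log2(RPKM + 1). The colour scale ends at 5. Most rows are near 0, and single bright cells, such as Epha5 in Control replicate 3 and Epha3 in Day 15 replicate 3, mark genes captured at a high level in 1 library.

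In Control, the semaphorin ligands led. By group median the order of levels was Sema6d (3.69 RPKM), Sema6a (2.84), Sema4d (1.66), Efnb3 (1.48) and Plxnb3 (1.18), and every other member had a median under 1. At Day 5 the first 3 places belonged to plexins: Plxnc1 (6.20 RPKM), Plxnb2 (5.16), Plxna1 (4.47), Efnb3 (4.25), Nrp2 (4.14), Sema4d (3.74), Sema6d (3.52) and Nrp1 (3.08). At Day 15 Sema6d led again (8.38 RPKM), before Plxnb2 (4.25), Plxnc1 (3.00), Sema4d (1.88) and Nrp1 (1.76). Neighbours in each of these orders overlap in their ranges, so the order describes medians only.

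Plxnc1, the plexin that binds the GPI-anchored semaphorin Sema7a, and Nrp2, the neuropilin that serves class 3 semaphorins such as Sema3f and also binds vascular endothelial growth factors, were the 2 tested members that rose at Day 5. Sema3d, a secreted class 3 semaphorin, lies below the filter but is the one member whose Day 5 libraries were all above all Control libraries. Plxnc1 and Nrp2 were called at Day 5 with the filter, and Sema3d only in a fit without it. That fit called neither Plxnc1 nor Nrp2 (limma adjusted p = 0.0764 and 0.160). The upstream sequences of these 3 members are shown because of these calls. Each is the 250 bases before the gene's start on its own strand, from RefSeq on GRCm38.p6 (a later build than the mm9 that the authors used), at chr10:94944846-94945095 on the minus strand for Plxnc1, chr1:62703067-62703316 on the plus strand for Nrp2 and chr5:12382916-12383165 on the plus strand for Sema3d. Of the 53 members, 47 had such an entry. Capitals mark matches on either strand to the interferon response core (GAAA, any 2 bases and GAAA again), GAGGAAG (a purine-rich ETS sequence), GGGCGG (a GC box) and TGACG (the core of a cyclic AMP response element).
Plxnc1: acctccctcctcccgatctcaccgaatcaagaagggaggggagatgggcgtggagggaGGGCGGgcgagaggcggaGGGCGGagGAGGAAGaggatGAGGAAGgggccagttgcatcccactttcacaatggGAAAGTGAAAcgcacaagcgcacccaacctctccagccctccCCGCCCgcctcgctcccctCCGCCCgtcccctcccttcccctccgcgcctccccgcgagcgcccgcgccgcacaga
Nrp2: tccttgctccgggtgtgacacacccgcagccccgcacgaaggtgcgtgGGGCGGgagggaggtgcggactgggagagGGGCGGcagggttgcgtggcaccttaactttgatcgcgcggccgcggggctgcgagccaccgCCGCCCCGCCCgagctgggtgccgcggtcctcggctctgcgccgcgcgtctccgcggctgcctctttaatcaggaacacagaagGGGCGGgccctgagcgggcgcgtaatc
Sema3d: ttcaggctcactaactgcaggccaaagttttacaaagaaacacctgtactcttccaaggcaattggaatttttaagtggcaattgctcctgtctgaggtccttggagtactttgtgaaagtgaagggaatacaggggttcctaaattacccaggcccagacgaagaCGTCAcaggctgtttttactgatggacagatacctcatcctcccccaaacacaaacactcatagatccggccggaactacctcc

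The Plxnc1 and Nrp2 stretches are rich in G and C, at 68.8% and 72.4%, with 22 and 32 CpG, against medians of 52.4% and 6 over 32851 promoter windows of the same length. The Sema3d stretch has 46.8% and 4 CpG. Plxnc1 holds 4 GC boxes, 2 purine-rich ETS sequences and 1 interferon response core, which 32.7%, 10.6% and 2.98% of all windows hold at least once. Nrp2 holds 5 GC boxes, of which 2 overlap by 1 base, and no match to the others searched. Sema3d holds the cyclic AMP core once, as do 17.8% of windows, and no GC box. TGANTCA (AP-1; in 6.75% of windows) and TATAAA (in 12.4%) were found in none of the 3. The letters were chosen after the sequences were seen, and a match is a description of the window, not a site in use.

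At Day 5 against Control, 2 of the 17 tested members rose and 0 fell, beside 6.04% of all 4319 genes called (6.02% higher, 260 genes, and 1 gene lower; limma, Benjamini-Hochberg adjusted p under 0.05). At an unadjusted p under 0.05 the members numbered 4 higher and 0 lower, near the 25.6% higher and 0.347% lower of all genes. The median log2 change was 0.59 over the 17 members and 0.61 over all tested genes, of which 84.9% were positive, so most genes were displaced upward in these libraries. A member could pass the filter through Day 5 alone, so these counts describe the tested members and not the families.

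The displacement depended on how libraries were scaled. With upper-quartile scaling, the same RPKM sum without Rn45s and quantile normalization, the median change of all genes was 0.10, 0.15 and -0.02, and that of the members was -0.09, -0.03 and -0.15. Of the 17 members 14 were positive as deposited, and 8, 8 and 7 under these scalings. The calls over all genes went from 260 higher and 1 lower to 18 and 4, 29 and 4, and 14 and 6. Limma then called 0 members, and at an unadjusted p under 0.05 they numbered 2 higher and 1 lower, 2 and 1, and 2 and 3. Changes below are therefore given as deposited and, where they are called or turn, with the 3 scalings in this order.

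**Figure D3:**
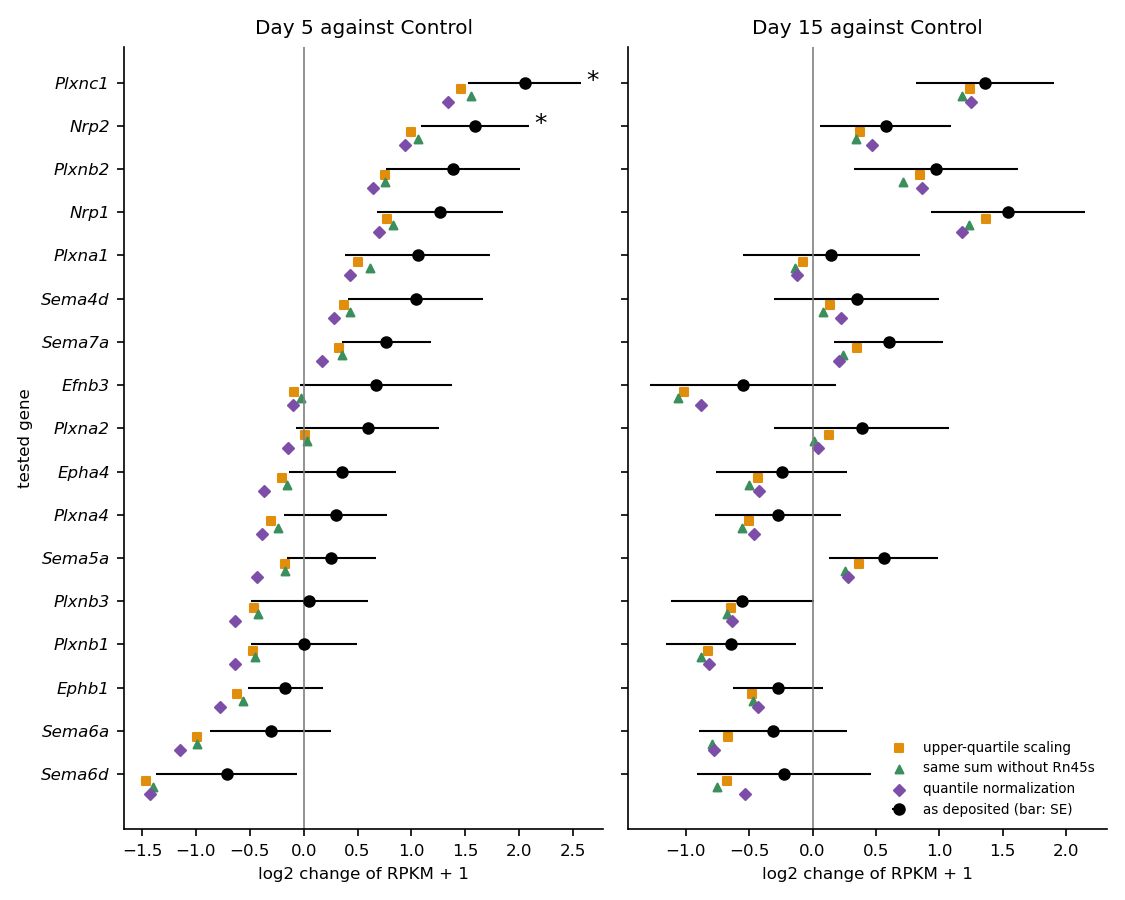
Log2 change of RPKM + 1 (x) of the 17 tested guidance genes (y) at Day 5 and at Day 15 against Control: black points as deposited with the SE as a bar, coloured points under 3 scalings of the libraries. Asterisks mark an adjusted p under 0.05 as deposited (Plxnc1 and Nrp2 at Day 5). At Day 5 the scaled values of every gene lie to the left of the deposited ones, and Sema6d and Sema6a are lowest under each.

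Among the plexins, Plxnc1 ran from 0.00546 to 1.57 RPKM in Control (median 0.270), from 0.454 to 12.8 at Day 5 (median 6.20) and from 0.366 to 11.2 at Day 15 (median 3.00). All Day 5 libraries but replicate 7 were above every Control library, 7 of 8, and the same 7 of 8 held as a share of the RPKM sum (Control 0.527 to 55.4 ppm, Day 5 30.1 to 427 ppm). Plxnc1 rose at Day 5 by 2.05 on the log2 scale (SE 0.53, limma adjusted p = 0.0175), from a mean of 0.561 ± 0.541 (SD, n = 10) to 6.62 ± 4.38 RPKM (SD, n = 8). Leaving out each library in turn kept the call in 25 of 25 fits (1.88 to 2.35, adjusted p from 0.0062 to 0.0456). Under the 3 scalings the change was 1.46, 1.55 and 1.34 and the call was lost (adjusted p = 0.129, 0.0886 and 0.163), as it was with a covariate for detected genes (1.24, adjusted p = 0.412) and without the filter (adjusted p = 0.0764). Within replicate numbers 1 to 6 it was 2.59 and within 7 to 10 it was 1.56, neither called in these smaller fits (limma adjusted p = 0.108 and 0.232).

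The other 6 plexins tested did not pass at Day 5. Plxnb2, a receptor of class 4 semaphorins widely found in glia and macrophages, ran from 0.0586 to 8.53 RPKM in Control (median 0.666), from 0.429 to 21.0 at Day 5 (median 5.16) and from 0.0731 to 12.0 at Day 15 (median 4.25). Of the 8 Day 5 libraries 7 lay above the Control median, but only 3 were above every Control library. The change was 1.38 (SE 0.62, limma adjusted p = 0.146). Plxna1, a receptor of Sema6d that pairs with Trem2 and Tyrobp in myeloid cells, ran from 0.0157 to 45.3 RPKM in Control (median 0.246), from 0.658 to 19.1 at Day 5 (median 4.47) and from 0.0118 to 10.8 at Day 15 (median 0.279). All 8 Day 5 libraries were above the Control median, and none was above Control replicate 4, which held the 45.3 while the next Control library held 5.61. The change was 1.06 (SE 0.67, limma adjusted p = 0.309).

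Plxna2, a receptor of class 3 and class 6 semaphorins, ran from 0.162 to 14.3 RPKM in Control (median 0.615), from 0 to 48.2 at Day 5 (median 1.63) and from 0.0160 to 60.3 at Day 15 (median 0.457). The highest stroke values, in Day 5 replicate 10 and Day 15 replicate 2, each stood alone in a group that otherwise overlaps with Control. The Day 5 change of Plxna2 was 0.59 (SE 0.66, limma adjusted p = 0.590), and 0.01, 0.03 and -0.15 under the 3 scalings. It was 0.04 without Day 5 replicate 10 and 0.91 without Control replicate 2. Plxna4, which shares ligands with Plxna2, ran from 0.163 to 4.59 RPKM in Control (median 0.648), from 0.0983 to 13.1 at Day 5 (median 1.02) and from 0 to 5.73 at Day 15 (median 0.173), and the groups overlap almost fully.

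Plxnb1, the classical Sema4d receptor, ran from 0.00293 to 22.0 RPKM in Control (median 0.445), from 0.181 to 2.92 at Day 5 (median 1.39) and from 0.00411 to 2.99 at Day 15 (median 0.271). Control thus held its highest values, and no stroke library was above all of them. The Day 5 change was near 0 (SE 0.49, limma adjusted p = 1.00). Plxnb3, a plexin known from the oligodendrocyte lineage, ran from 0.0338 to 14.5 RPKM in Control (median 1.18), from 0.288 to 9.28 at Day 5 (median 1.43) and from 0 to 4.23 at Day 15 (median 0.784), with a Day 5 change of 0.05 (SE 0.54). Under the 3 scalings the changes of Plxnb1, Plxnb3 and Plxna4 were all negative, without a call.

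Both neuropilins were higher at Day 5 by median. Nrp2 ran from 0 to 1.93 RPKM in Control (median 0.517), from 0.625 to 20.6 at Day 5 (median 4.14) and from 0.0454 to 3.85 at Day 15 (median 1.05). Of the 8 Day 5 libraries 5 were above every Control library, and 3 were as a share of the RPKM sum. Nrp2 rose by 1.59 (SE 0.50, limma adjusted p = 0.0465), from 0.632 ± 0.700 (SD, n = 10) to 5.49 ± 6.56 RPKM (SD, n = 8), and the Day 5 mean was 3.33 without replicate 4. Leaving out 1 library at a time kept the call in 11 of 25 fits (adjusted p from 0.0232 to 0.0989). Leaving out any of Day 5 replicates 1, 3, 4, 8 and 10, Day 15 replicate 9, and Control replicates 1, 3, 4, 5, 6, 7, 9 and 10 ended it, and so did leaving out both libraries rich in Rn45s (1.39, limma adjusted p = 0.101), without which Plxnc1 kept its call (2.09, adjusted p = 0.0325). Under the 3 scalings the change was 0.99, 1.06 and 0.94 (adjusted p = 0.353, 0.286 and 0.358), and with the detected genes as a covariate it was 0.77 (adjusted p = 0.662). Within replicate numbers 1 to 6 and 7 to 10 it was 2.08 and 1.02 (adjusted p = 0.126 and 0.403).

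Nrp1, the Sema3a co-receptor, ran from 0 to 2.40 RPKM in Control (median 0.372), from 0.320 to 6.35 at Day 5 (median 3.08) and from 0.182 to 104.7 at Day 15 (median 1.76). Of the 8 Day 5 libraries 5 were above every Control library, but the groups overlap and the change of 1.26 (SE 0.58, limma adjusted p = 0.159) did not pass.

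**Figure D4:**
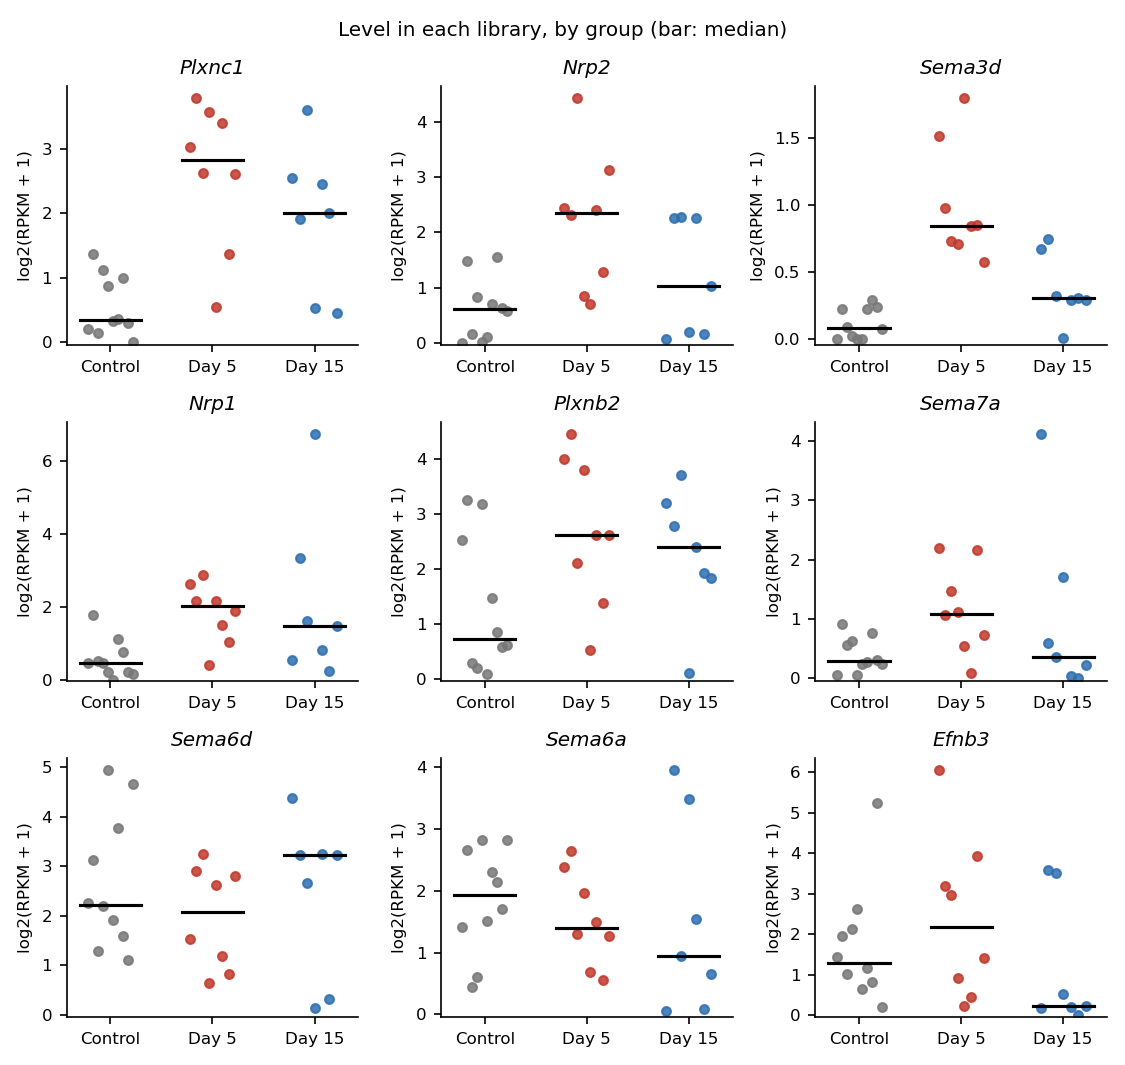
Level of 9 guidance genes as log2(RPKM + 1) (y) in Control, Day 5 and Day 15 (x), 1 point a library, with the median as a bar; each panel has its own axis range. Plxnc1 and Nrp2 are higher at Day 5 with some overlap, all 8 Day 5 libraries of Sema3d are above its Control libraries, and Sema6d, Sema6a and Efnb3 spread widely in all groups.

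Among the semaphorin ligands, Sema3d ran from 0 to 0.221 RPKM in Control (median 0.0556), from 0.490 to 2.49 at Day 5 (median 0.798) and from 0.00284 to 0.678 at Day 15 (median 0.237). Every Day 5 library was above every Control library, which was so of 1 member of 53 and of 0.208% of the 22610 genes above 0 in any library. Only 2 libraries reached 1 RPKM, so these are low levels. Fitted without the filter, where 0.106% of genes were called, Sema3d rose at Day 5 by 0.89 (SE 0.17, limma adjusted p = 0.0253), and leaving out 1 library at a time kept that call in 18 of 25 fits (adjusted p from 0.0211 to 0.0627). Leaving out Day 5 replicate 1 or 3, or one of Control replicates 1, 3, 4, 6 and 10, ended the call. Under the 3 scalings the change was 0.64, 0.67 and 0.62 (adjusted p = 0.503, 0.439 and 0.706), with the covariate for detected genes it was 0.86 (adjusted p = 0.485), and as a share of the RPKM sum 6 of 8 Day 5 libraries were above every Control library. Its ranges were 0 to 0.165 in Control and 0.635 to 1.87 at Day 5 for replicate numbers 1 to 6, and 0.0511 to 0.221 and 0.490 to 2.49 for 7 to 10.

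Sema7a, the ligand of Plxnc1, ran from 0.0416 to 0.887 RPKM in Control (median 0.228), from 0.0682 to 3.57 at Day 5 (median 1.13) and from 0 to 16.4 at Day 15 (median 0.290). No Control library reached 1 RPKM, and 5 of the 8 Day 5 libraries were above every Control library. The change was 0.77 (SE 0.41, limma adjusted p = 0.232). Sema4d, which binds Plxnb1, Plxnb2 and the immune co-receptor Cd72, ran from 0.132 to 6.03 RPKM in Control (median 1.66), from 0.704 to 23.4 at Day 5 (median 3.74) and from 0.0463 to 12.5 at Day 15 (median 1.88). At Day 5, 3 libraries were above every Control library and the rest lay among them. The change was 1.04 (SE 0.63, limma adjusted p = 0.284).

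The class 6 semaphorins Sema6d and Sema6a, membrane ligands of A plexins and the highest members in Control, had negative changes at Day 5, as deposited and under each scaling, without a call. Sema6d ran from 1.15 to 29.9 RPKM in Control (median 3.69), from 0.555 to 8.49 at Day 5 (median 3.52) and from 0.0975 to 19.9 at Day 15 (median 8.38). The groups overlap, and no stroke library was above the highest Control. The Day 5 change was -0.72 (SE 0.66, limma adjusted p = 0.504), and -1.46, -1.40 and -1.43 under the 3 scalings. Sema6a ran from 0.362 to 6.08 RPKM in Control (median 2.84), from 0.477 to 5.26 at Day 5 (median 1.64) and from 0.0408 to 14.5 at Day 15 (median 0.931). Its Day 5 change was -0.31 (SE 0.56, limma adjusted p = 0.753), and as a share of the RPKM sum every Day 5 library, at most 81.7 ppm, was below the Control median of 171 ppm. Sema5a, a membrane semaphorin with thrombospondin repeats, ran from 0.0511 to 1.89 RPKM in Control (median 0.615), from 0.422 to 4.52 at Day 5 (median 0.743) and from 0.466 to 7.20 at Day 15 (median 1.21). The groups overlap, and the Day 5 change of 0.26 (SE 0.41, limma adjusted p = 0.715) was negative under the 3 scalings.

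In the ephrin system 3 members were tested, and limma called 0 of them and gave 0 an unadjusted p under 0.05. Efnb3, a membrane ephrin of myelinating oligodendrocytes that blocks axon growth, ran from 0.154 to 36.9 RPKM in Control (median 1.48), from 0.176 to 65.1 at Day 5 (median 4.25) and from 0.00255 to 11.0 at Day 15 (median 0.168). The highest values, Control replicate 9 and Day 5 replicate 1, lay far above the rest of their groups, which overlap. The Day 5 change of Efnb3 was 0.67 (SE 0.70, limma adjusted p = 0.565), and -0.09, -0.03 and -0.10 under the 3 scalings. It was 0.15 without Day 5 replicate 1 and 1.06 without Control replicate 9. Epha4, a receptor that binds ephrins of both classes, ran from 0.00829 to 5.24 RPKM in Control (median 0.814), from 0.0861 to 9.02 at Day 5 (median 1.15) and from 0.00466 to 3.70 at Day 15 (median 0.463). All groups overlap, and the Day 5 change of 0.36 (SE 0.50, limma adjusted p = 0.670) was negative under the 3 scalings. Ephb1, a receptor of B ephrins, ran from 0.00351 to 3.28 RPKM in Control (median 0.728), from 0 to 2.56 at Day 5 (median 0.563) and from 0.00229 to 3.10 at Day 15 (median 0.387). Its Day 5 change was -0.17 (SE 0.34), and no Day 5 library was above the Control median of Ephb1 as a share of the RPKM sum.

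Macrophage and microglia marker sums, like Plxnc1 and Nrp2, had higher medians at both stroke days than in Control. From Day 5 to Day 15 the median of the macrophage and leukocyte sum was lower, as were those of Plxnc1, Nrp2 and Sema3d, while that of the microglia sum was higher. Day 5 replicate 7 had the lowest macrophage and leukocyte sum of its group (158 RPKM) and the lowest Plxnc1 (0.454 RPKM) and Nrp2 (0.625 RPKM), and also the highest Sema3d (2.49 RPKM). Other Day 5 libraries went either way. Replicate 6 had 11.0 RPKM of Plxnc1 at macrophage and leukocyte and microglia sums of 310.1 and 80.7 RPKM, among the lowest of the group. Replicate 9 had 1.59 RPKM at sums of 992 and 160.1. Replicate 3 had the highest Plxnc1 of the group (12.8 RPKM) at sums of 1121 and 664.5, the latter the highest Day 5 microglia sum. Day 5 replicate 4 had the highest macrophage and leukocyte sum (2618 RPKM), the highest sum of 11 pericyte, smooth muscle and fibroblast markers (109 RPKM, against a Control median of 1.69) and the highest Nrp2 (20.6 RPKM). At Day 15 the highest Plxnc1 (11.2 RPKM) was in replicate 5, which had the highest microglia sum (1648 RPKM). Day 15 replicate 2, with the highest macrophage and leukocyte sum of that group (589 RPKM), had 4.84 RPKM of Plxnc1 and 0.0454 RPKM of Nrp2. The part of these other cell types in the result was not tested.

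**Figure D5:**
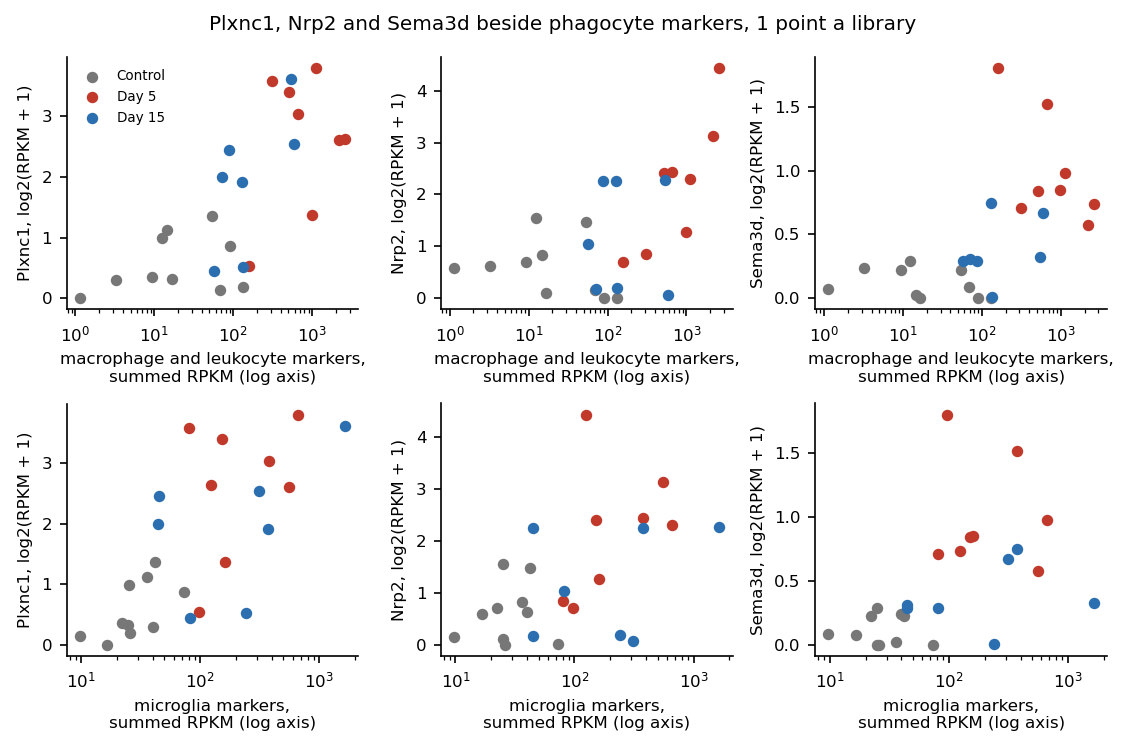
Levels of Plxnc1, Nrp2 and Sema3d as log2(RPKM + 1) (y) against the summed RPKM (log axis, x) of 12 macrophage and leukocyte markers (top row) and of 12 microglia markers (bottom row), 1 point a library, coloured by group. The Day 5 library with the lowest macrophage and leukocyte sum (158 RPKM) has the lowest Day 5 level of Plxnc1 and Nrp2 and the highest level of Sema3d. It also has the lowest RPKM sum without Rn45s of the Day 5 libraries.

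At Day 15 against Control, 0 of the 17 tested members were called by limma, beside 0.0926% of all genes (4 higher), and Nrp1 and Plxnc1 were higher at an unadjusted p under 0.05, as 7.55% of all genes were. The median change was 0.15 over the members and 0.17 over all genes, and -0.08, -0.14 and -0.13 over the members under the 3 scalings. Plxnc1 was above every Control library in 5 of the 7 Day 15 libraries, and its change was 1.36 (SE 0.55, limma adjusted p = 0.415). For Nrp1 the change was 1.54 (SE 0.61, limma adjusted p = 0.402). Its Day 15 mean of 17.0 RPKM came mostly from replicate 6, where Nrp1 alone reached 104.7 RPKM and made up 80.3% of the guidance total, and was 2.38 RPKM without it. Leaving out 1 library at a time moved that change between 0.77 and 1.85.

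The receptors Plxnb2 and Nrp2 had Day 15 changes of 0.97 (SE 0.65, limma adjusted p = 0.695) and 0.58 (SE 0.52, limma adjusted p = 0.813). For the ligands Sema7a and Sema5a the changes were 0.60 (SE 0.43) and 0.56 (SE 0.43). Sema7a had 16.4 RPKM in Day 15 replicate 2 and at most 2.27 in the other Day 15 libraries, and its change was 0.08 without that library. The Sema5a change was 0.28 without Day 15 replicate 3. Plxnb1 and Efnb3 had negative values, -0.64 (SE 0.51) and -0.55 (SE 0.73), which were -0.27 without Control replicate 6 for Plxnb1 and -0.16 without Control replicate 9 for Efnb3. Efnb3 reached 1 RPKM in 2 of the 7 Day 15 libraries and in 7 of the 10 Control libraries. No member had every Day 15 library above every Control library, beside 0.0133% of genes. The Sema3d change without the filter was 0.26 (limma adjusted p = 0.942).

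Between Day 15 and Day 5, 0 of the 17 members were called by limma, beside 0% of all genes, and 0 members had an unadjusted p under 0.05, which 0.787% of all genes had as higher and 13.9% as lower. All 3 comparisons share groups: Day 5 and Day 15 were set against the same Control libraries, so their changes are not independent. The median of Day 15 against Day 5 was -0.57 over the members and -0.44 over all genes, and -0.19, -0.26 and -0.0022 over the members under the 3 scalings. The lowest p-values among the members belonged to Nrp2 with -1.01 (SE 0.54, limma adjusted p = 0.371), Efnb3 with -1.22 (SE 0.77, limma adjusted p = 0.466) and Plxna1 with -0.91 (SE 0.73, limma adjusted p = 0.583). Plxnc1 stood at -0.69 (SE 0.57, limma adjusted p = 0.598). Sema6d, whose median went from 3.52 to 8.38 RPKM, had a change of 0.49 (SE 0.72, limma adjusted p = 0.776). No member had every Day 5 library above every Day 15 library, beside 0.111% of genes.

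Of the 36 members below the filter, 15 had over 50% of their RPKM, summed over all libraries, in 1 library (41.7%, median top share 41.3%). That is near the 42.9% of all 18291 genes below the filter and above 0 (median top share 45.3%). Of the 17 tested members 1 was so, Nrp1 with 70.2% (5.88%, median top share 22.6%), beside 20.7% of all tested genes (median top share 31.2%). Epha5, an Eph receptor of the A class, had 57.1 RPKM in Control replicate 3 and at most 2.74 elsewhere. Epha3 had 30.4 RPKM in Day 15 replicate 3, 2.21 in replicate 2 and less than 1 in all others. Epha10, an Eph receptor without kinase activity, had 9.83 RPKM in the same Control replicate 3 as Epha5.

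The ephrin Efnb2, a partner of Ephb4 in vessels, reached 1 RPKM in 6 libraries, up to 5.60 in Day 5 replicate 9. Plxnd1, a plexin of endothelium, reached it in 5, up to 3.49 in Day 5 replicate 3. Sema4g and Sema4a, class 4 membrane semaphorins, reached it in 3 libraries each, with 7.46 in Day 5 replicate 3 and 6.16 in Day 5 replicate 4. Sema3a and Sema3f, the secreted semaphorins best known for acting on OPC migration, reached 1 RPKM in 1 library each, 5.15 in Day 15 replicate 7 and 1.21 in Control replicate 9. Of the ephrin ligands of the A class, Efna2, Efna3 and Efna4 were at most 0.365, 0.142 and 0.253 RPKM in any library. Efna1 reached 2.14 RPKM in Control replicate 9 and Efna5 reached 6.66 in Day 5 replicate 9. Sema3a, Sema3f and these A ephrins were named after their values were seen.

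Around these families stand co-receptors and inner partners, given here from 4 lists of 116 genes, of which 48 were tested. At Day 5, 4 of the 48 rose and 0 fell, beside the 6.04% of all genes called. Of 8 tested semaphorin co-receptors 3 rose: Tyrobp by 2.40 (SE 0.60, limma adjusted p = 0.0139) and Trem2 by 2.12 (SE 0.57, adjusted p = 0.0241), the adaptor and receptor that pair with Plxna1, and Cd72, a Sema4d receptor of B cells and myeloid cells, by 1.36 (SE 0.43, adjusted p = 0.0483). Trem2 and Tyrobp are also in the microglia marker list, whose sum moved with the groups as given above, and that part was not tested. Cd72 ran from 0 to 0.913 RPKM in Control and from 0.702 to 9.50 at Day 5, and its call held in 9 of 25 fits that left out 1 library. No Control library of Cd72 reached 1 RPKM, so Cd72 passed the filter through stroke libraries alone. The lists were also chosen with earlier results of these data known, so the 3 of 8 describes these genes only. For Trem2, leaving out Day 5 replicate 1 ended the call (limma adjusted p = 0.0601).

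Of 13 tested genes of ephrin and Eph signalling 1 rose. Sdcbp, which encodes syntenin, a scaffold that binds the tails of B ephrins and of syndecans, ran from 0.335 to 8.09 RPKM in Control (median 1.66), from 10.6 to 38.6 at Day 5 (median 15.1) and from 0.391 to 96.3 at Day 15 (median 3.81). Every Day 5 library was above every Control library, as was so of 0.208% of the 22610 genes above 0 in any library. Sdcbp rose by 2.64 (SE 0.64, limma adjusted p = 0.0127) and kept the call in 25 of 25 fits that left out 1 library. The 18 tested genes of semaphorin and plexin signalling had 0 calls by limma and 4 higher at an unadjusted p under 0.05 (25.6% of all genes were), among them Cdc42, a GTPase of the cell edge, at 1.94 (SE 0.63, limma adjusted p = 0.0510). The 9 tested genes of other guidance families, which include netrins, slits and their receptors, had 0 calls by limma and 0 at an unadjusted p under 0.05. All 4 rises lost their call under each of the 3 scalings, with changes of 1.79, 1.84 and 1.85 for Sdcbp (adjusted p from 0.158 to 0.195) and 1.78, 1.85 and 1.74 for Tyrobp (adjusted p from 0.0716 to 0.0975).

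At Day 15 against Control 0 of the 48 were called by limma, and at an unadjusted p under 0.05 they numbered 4 higher and 1 lower (7.55% and 1.32% of all genes were). Tyrobp had a change of 1.89 (limma adjusted p = 0.240), Trem2 of 1.72 (adjusted p = 0.279) and Rap1b, a GTPase that plexins inactivate, of 1.93 (adjusted p = 0.349), with a Rap1b range of 0.160 to 179 RPKM. At Day 15 against Day 5 0 were called too, with 7 lower at an unadjusted p under 0.05 (13.9% of all genes were), and the smallest p-values belonged to Chl1, an adhesion protein that joins Nrp1 in the Sema3a receptor (-1.63, limma adjusted p = 0.231), Cdc42 (-1.94, adjusted p = 0.237) and Adam10, the protease that sheds ephrins (-1.30, adjusted p = 0.302).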

How the data were processed

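The samples were cDNA-amplified with Nugen reagents and sequenced as 100 bp paired ends, per the labels' protocols. CASAVA 1.8.3, STAR 2.1.4a, HTSeq and mm9 are named in the submitters' processing notes. The authors deposited RPKM, 1 column for each of the 25 libraries. Not given in the sources used here are the gene lengths, the reads scaled to and the strand setting, so depth is unknown and overlapping genes or close paralogs are uncertain. Amplification from little RNA can leave a low transcript out of a library. No animal, batch or lane is labelled, so some libraries may come from 1 animal. The p-values would then be too small, and they reflect only how far these samples, perhaps technical repeats, spread.

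From 23351 genes, 4319 were tested, those that 7 or more libraries held at an RPKM of at least 1. Values were log2(RPKM + 1), which makes changes of low genes look smaller. All groups entered one fit with limma 3.58.1 in R 4.3.3 (intensity trend, robust variance, two-sided), with Benjamini-Hochberg adjustment over all genes tested and a threshold of 0.05. The fit of Day 5 against Control was tried on simulated data (4319 genes, 200 of them changed). It recovered 14%, 64.8%, 92% and 99.2% of log2 changes of 1, 2, 3 and 4, with 4.3% false calls. Whether these rates hold for the deposited libraries, with a median Day 5 change of 0.61 over all tested genes, was not tested.

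The members and the gene lists were chosen with earlier results of these data known. Given in full were called members, the 6 with the smallest p in each comparison and those whose mean reached 5 RPKM in a group. Below the filter the 8 with the highest mean were named, and of the lists the called genes and the 3 smallest p. Alternatives were another pseudocount, other filters, 3 scalings, library weights, another variance model, the compared groups alone, a covariate for detected genes, a replicate block and leaving out each library. Added after seeing the data were replicate numbers 1 to 6 and 7 to 10 apart or as a covariate, leaving out both libraries rich in Rn45s, and the fits of Sema3d that combine no filter with another choice.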

Additional observations from a re-analysis of the deposited data

Results flagged for a closer look

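In 6 of 54 sets of 1 gene in 1 group (17 tested members and Sema3d), the highest library stood apart from the others by Dixon's test on log2(RPKM + 1), which chance flags in about 1 of 20 sets. Efnb3 had 36.9 RPKM in Control replicate 9 and 0.154 to 5.21 in the other controls. Plxna1 had 45.3 RPKM in Control replicate 4 and at most 5.61 in the others. Plxna2 had 48.2 RPKM in Day 5 replicate 10, with at most 4.45 in the rest of that group, and 60.3 RPKM in Day 15 replicate 2, with at most 3.16 in the rest. Plxnb1 had 2.99 RPKM in Day 15 replicate 5 and at most 0.472 in the others. Sema7a had 16.4 RPKM in Day 15 replicate 2, the library with the high Plxna2, and at most 2.27 in the others. Plxna2 made up 50.5% of the guidance total of Day 15 replicate 2 and 50.8% of that of Day 5 replicate 10, which is one of the libraries rich in Rn45s. None of these genes was called in any comparison.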

How the results depend on the processing

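At Day 5 the count of called members, 2 as reported, was 0 with the detected genes as a covariate, at a mean RPKM of at least 5, under upper-quartile scaling, quantile normalization or the same sum without Rn45s, and within replicate numbers 1 to 6 or 7 to 10. It was 1 without the filter (Sema3d) and 1 without both libraries rich in Rn45s (Plxnc1), and 1 to 2 when each library was left out in turn. At a mean RPKM of at least 5 only 6 members were tested. Plxnc1 and Nrp2 were not among them, so that count cannot bear on their calls. The median Day 5 change of the members was -0.32 with the covariate, and 0.59 as reported. The count of called pathway genes at Day 5, 4 as reported, was 0 with the covariate, without the filter, under the 3 scalings and within either number range, 8 with the number range as a covariate, and 2 to 8 when each library was left out (2 without Day 5 replicate 1, 8 without Day 5 replicate 7). At Day 15 against Control it was 0 as reported and 1 with a pseudocount of 0.1 (Trem2, change 3.27, limma adjusted p = 0.0445). A smaller count at a mean RPKM of at least 5 or within a number range comes with fewer genes or libraries; otherwise the cause was not tested. At Day 15 against Control and against Day 5 the count of called members was 0 under every alternative run, and 0 called genes turned direction. The number of reads limits all values and is unknown.

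Same-number libraries of different groups hardly correlated: 20 such pairs had correlations of their deviations from the group means of -0.057 to 0.084 (median 0.0136). Pairs with different numbers had a median of 0.0012. Libraries agreed poorly even within a group, so this check cannot decide whether a number stands for a shared animal or batch. With the replicate block, 3 members were called at Day 5: Plxnc1 (2.27, limma adjusted p = 0.0107), Nrp2 (1.58, adjusted p = 0.0411) and Plxnb2 (1.78, adjusted p = 0.0471). Sema3d without the filter was not called with the replicate block (0.91, limma adjusted p = 0.0821). Over all genes the block gave 498 higher and 1 lower calls in place of 260 and 1. Other Day 5 counts over all genes that moved by over 1.5 times were 590 higher and 7 lower with library weights, 550 and 3 with a pseudocount of 0.1, 397 and 1 with the number range as a covariate, 117 and 2 at a mean RPKM of at least 5, 24 and 0 without the filter, 4 and 0 within each number range and 0 with the covariate for detected genes, where 282 higher and 165 lower had an unadjusted p under 0.05. At Day 15 against Control, 4 higher and 0 lower as reported, these counts were 36 and 2 with a pseudocount of 0.1, 27 and 2 with library weights, 11 and 0 at a mean RPKM of at least 5, 7 and 1 without trend and robust estimate, 7 and 2 with upper-quartile scaling, 2 and 2 with quantile normalization, 2 and 0 with the compared groups alone, 1 and 0 with the covariate or without the libraries rich in Rn45s, 0 and 1 with the same sum without Rn45s, and 0 without the filter or within a number range. Leaving out 1 library moved many changes of uncalled members by over 1.5 times, among them Sema6d at Day 5 (-0.46 without Control replicate 5), Sema5a at Day 5 (0.05 without Day 5 replicate 6), Plxnc1 at Day 15 against Day 5 (-0.45 without Day 15 replicate 9) and Efnb3 there (-0.70 without Day 5 replicate 1).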
